A study of Mus musculus with 7 samples.

Results

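The prostaglandin synthesis enzymes described here are 7 genes of mouse embryonic fibroblasts (MEFs): Pla2g4a, Ptgs1, Ptgs2, Ptges, Ptges2, Ptges3 and Ptgis. They were picked by symbol, as the enzymes that free arachidonic acid and convert it into prostaglandin E2 (PGE2) or prostacyclin, with earlier results of these data known. All 7 were found among the 49382 genes measured. All 7 also had a mean of 2 TPM or more across the libraries, as did 12909 genes in all, which are the expressed genes referred to below.

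The cells were primary wild type fibroblasts taken from mid-gestation embryos, used between passage 3 and passage 7 and plated at 100000 cells per well (10000 per cm2). The study exposed them to 6 stresses to ask how the environment of a fibroblast changes its transcripts. After overnight culture, cells were kept for 10 hours in glucose-free medium (glucose depletion), in glutamine-free medium (glutamine depletion), at 0.1% oxygen (hypoxia) or with 1 μM thapsigargin, a blocker of the calcium pump of the endoplasmic reticulum (ER stress). Other wells received 10 μM sodium arsenite (oxidative stress) or 100 mM added NaCl (osmotic stress) for 3 hours. The control had no treatment, and its time of harvest is not given in the sources used here, so treatments of 10 and of 3 hours were compared with the same control library. Each condition was 1 library of 1 culture. No difference could therefore be set against the spread between cultures, and no test or p-value is given. The values are in TPM, the share of a gene in its library per unit of transcript length, scaled to the same total in each library, so levels of different genes can be set side by side. TPM keeps no read count, so the depth behind each value is unknown. In a bulk culture, fewer cells of a type and less RNA per cell cannot be told apart.

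The libraries carried the markers of their labelled cell type. The 8 fibroblast markers, Col1a1, Col1a2, Col3a1, Pdgfra, Pdgfrb, Thy1, Dcn and Vim, were present in every library and summed to 6160 to 12781 TPM, with the lowest sum in ER stress. The 5 smooth muscle genes, among them Acta2 and Tagln, which cultured fibroblasts also express, summed to 3498 to 8123 TPM. Macrophage markers, 6 genes, summed to 6.76 to 16.6 TPM, with the highest sum in osmotic stress, and 2 of the 6, Ptprc and Adgre1, were under 1 TPM in every library. Itgam stands on 2 lines of the table, which reached 1.99 and 0.944 TPM in osmotic stress and did not exceed 0.0602 TPM in the other libraries. The 5 endothelial genes summed to 4.09 to 9.07 TPM and the 4 epithelial genes to 3.88 to 11.6 TPM. The 4 erythroid and the 4 mast cell genes were under 1 TPM in every library. A gene known to respond to each treatment was also read. Hmox1 went from 266 to 6055 TPM in oxidative stress, Hspa5 from 1165 to 12611 in ER stress, Bnip3 from 26.7 to 797 in hypoxia, Akr1b3 from 90.5 to 575 in osmotic stress and Chac1 from 26.2 to 86.8 in glutamine depletion, while Txnip fell from 70.7 to 16.1 in glucose depletion.

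Prostaglandins are short-lived lipid signals made from arachidonic acid, a fatty acid stored in membrane phospholipids. A phospholipase A2 releases it, a cyclooxygenase (Ptgs1 or Ptgs2) converts it to prostaglandin H2, and a terminal synthase turns that into PGE2, prostacyclin or another prostanoid. Ptgs1 is the form present in most resting cells, whereas Ptgs2 is an immediate early gene whose transcript is made quickly after growth factors, cytokines or stress and is short-lived. Fibroblasts are a known source of PGE2 and prostacyclin in connective tissue.

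The regulatory sequences of Ptgs2 are shown because this gene alone accounted for the increases past 2-fold reported below, and those of Ptgs1 and Ptges because they are its constitutive partner and the synthase that fell in ER stress. Promoters were taken from RefSeq on GRCm38.p6, which held 6 of the 7 genes (Ptgis was the exception). Each is printed 5′ to 3′ on the strand of the gene, as the 250 bases before the annotated start of transcription. Where transcription starts in these cells was not measured. Capitals mark the motifs found. For Ptgs2 (chr1:150099781-150100030, plus strand) these are a GC box from -170 to -165 and a C/EBP palindrome from -69 to -62, counted from the start. For Ptges (chr2:30903298-30903547, minus strand) they are a GC box from -53 to -48 and another from -42 to -37. The GENCODE annotation places Ptges at 30889471 to 30929863 on that strand, so these 250 bases lie inside the GENCODE gene. Ptgs1 (chr2:36230176-36230425, plus strand) held none of the 11 motifs searched.
Ptgs2 promoter: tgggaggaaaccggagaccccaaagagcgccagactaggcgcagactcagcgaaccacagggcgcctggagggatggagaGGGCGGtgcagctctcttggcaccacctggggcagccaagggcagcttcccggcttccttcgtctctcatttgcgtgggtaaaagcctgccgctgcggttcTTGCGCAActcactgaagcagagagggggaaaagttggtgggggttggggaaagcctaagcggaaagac
Ptgs1 promoter: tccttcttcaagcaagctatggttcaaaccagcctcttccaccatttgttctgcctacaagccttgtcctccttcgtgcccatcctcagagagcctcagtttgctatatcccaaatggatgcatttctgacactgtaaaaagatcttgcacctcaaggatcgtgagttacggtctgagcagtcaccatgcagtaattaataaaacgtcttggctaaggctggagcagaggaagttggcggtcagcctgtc
Ptges promoter: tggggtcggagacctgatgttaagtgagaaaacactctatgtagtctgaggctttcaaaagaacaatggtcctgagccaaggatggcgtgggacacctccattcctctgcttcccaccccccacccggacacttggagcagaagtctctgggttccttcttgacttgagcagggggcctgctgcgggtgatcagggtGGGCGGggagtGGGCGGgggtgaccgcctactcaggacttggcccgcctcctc

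Just inside the annotated Ptgs2 transcript, 30 bases at chr1:150100035-150100064 (plus strand) hold 2 further motifs, in capitals. These are the CRE core read on the opposite strand at bases 14 to 18 and an E-box at bases 17 to 22, which overlap each other. The core of the hypoxia response element lies inside the E-box.
Ptgs2 start site: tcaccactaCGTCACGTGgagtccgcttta
The search covered both strands of 300 bases, 250 before to 50 after the start, of 32851 mouse promoters. The C/EBP palindrome TTGCGCAA was in 0.183% of them, the E-box CACGTG in 7.15%, the CRE core TGACG in 20.8%, the hypoxia core ACGTG in 19.6% and the GC box GGGCGG in 35.7%. The other 6 motifs were TATAAA (13.6%), CCAAT (37.4%), TGANTCA for AP-1 (7.81%), GAANNTTC for heat shock factor (7.86%), TGACNNNGC for NRF2 (12.4%) and TGATGNAA for ATF4 (3.97%), and Ptgs2 had none of them in this window. A match is a string of letters and not a measured binding site.

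The 3′ end of Ptgs2 is shown for the same reason. AU-rich elements, repeats of the pentamer ATTTA in a 3′ untranslated region, are bound by proteins that shorten or lengthen the life of a transcript. The 3′ untranslated region of Ptgs2, 2445 bases long, held 14 ATTTA pentamers (5.73 per kb), and 2.99% of 11230 genes held at least as many. The median gene held 2. Pla2g4a, Ptges2 and Ptges3 held 4 each, and Ptgs1, Ptges and Ptgis held 0. Per length, Pla2g4a was the densest of the 7, with 9.03 per kb in a region of 443 bases, while Ptges3 had 3.37 and Ptges2 1.16 per kb. The first cluster, bases 12 to 41 of that region, is shown with its 4 pentamers in capitals.
Ptgs2 AU-rich cluster: ccatATTTATTTATTTAtgtgaagaATTTA

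Of the 7 enzymes, Ptgs2 alone rose by more than 2-fold against the control, in 3 of the 6 stresses, and ER stress was the one condition in which any of them, Ptges, fell by that much. The other 38 of the 42 combinations of gene and stress stayed within 2-fold. A change is the difference in log2(TPM + 1) between a stress and the control, and more than 2-fold means a difference beyond 1. In glutamine depletion 1 of the 7 genes rose, as did 3.21% of all expressed genes, and 0 fell (3.21% of all). Oxidative stress raised 1 (3.94% of all) and lowered 0 (4.85% of all). Osmotic stress likewise raised 1 (3.08% of all) and lowered 0 (8.76% of all). In ER stress 0 of the 7 rose, against 8.60% of all expressed genes, and 1 fell, against 11.0% of all. Glucose depletion moved 0 of the 7 past 2-fold, with 1.83% of all genes above and 2.41% below. Hypoxia moved 0 of the 7 as well, with 3.57% of all genes above and 2.64% below. For 7 genes, counts of 0 or 1 lie near these shares, and it is the size of the Ptgs2 change that set it apart, not the number of enzymes that moved.

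**Figure D1:**
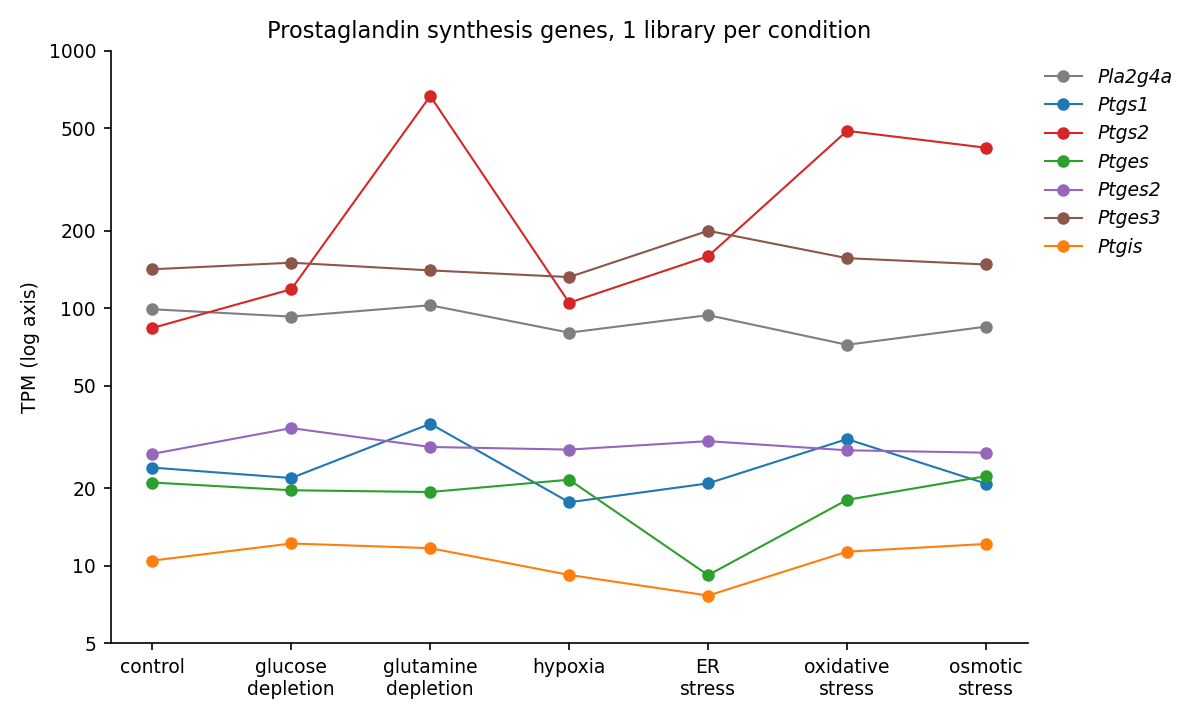
TPM of the 7 genes (log axis) in the 7 libraries, 1 point per library, with lines that only join the points of a gene. Ptgs2 spans 83.8 to 667 TPM, while no other gene spans more than 2.42 times its lowest level, the widest being Ptges with its dip to 9.19 TPM in ER stress.

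Pla2g4a, the cytosolic phospholipase A2 that frees arachidonic acid when calcium rises, was among the more abundant of the 7. It stood at 99.1 TPM in the control, 92.8 in glucose depletion, 103 in glutamine depletion, 80.4 in hypoxia, 94.0 in ER stress, 72.1 in oxidative stress and 84.8 in osmotic stress. The highest library was 1.42 times the lowest. The log2 changes ran from -0.45 in oxidative stress to 0.05 in glutamine depletion, none past 2-fold. Pla2g4a lies beside Ptgs2 on chromosome 1, at 149829618 to 149961290 on the minus strand, and did not share the rise of its neighbour.

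Ptgs1, the constitutive cyclooxygenase, had 24.0 TPM in the control. It read 21.9 in glucose depletion, 35.6 in glutamine depletion, 17.6 in hypoxia, 20.9 in ER stress, 31.02 in oxidative stress and 20.8 in osmotic stress. Glutamine depletion and oxidative stress were the only libraries above the control, with log2 changes of 0.55 and 0.36, and hypoxia was the lowest at -0.43. None of these passed 2-fold, although the highest library, glutamine depletion, was 2.02 times the lowest, hypoxia.

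Ptgs2, the inducible cyclooxygenase (chromosome 1, 150100031 to 150108227, plus strand), had 83.8 TPM in the control, so it was already the more abundant cyclooxygenase of unstressed cells. It read 667 TPM in glutamine depletion, 489 in oxidative stress and 420 in osmotic stress. It read 159 TPM in ER stress, 118 in glucose depletion and 105 in hypoxia. The libraries thus fell into a high range of 420 to 667 TPM and a low range of 83.8 to 159 TPM, with the control the lowest of all. Without replicates, the order within each range could not be set against a spread.

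Against the control, Ptgs2 was 7.96 times as high in glutamine depletion (log2 change 2.98), 5.83 times in oxidative stress (2.53) and 5.01 times in osmotic stress (2.31). Ranked by log2 change, it was 85 of 12909 expressed genes in glutamine depletion, 159 in osmotic stress and 193 in oxidative stress. In ER stress the ratio was 1.90 (log2 change 0.92) and the rank 1305, just inside the 2-fold limit in a library where many genes moved. In glucose depletion and hypoxia the ratios were 1.41 and 1.25 (log2 changes 0.50 and 0.32). The median change of the expressed genes was -0.16 under arsenite and -0.12 under NaCl, and relative to that median Ptgs2 was up by 2.69 and 2.43. At 10 hours that median was -0.09 in glutamine depletion, -0.05 in hypoxia, -0.02 in glucose depletion and 0 in ER stress. Since each library is scaled to the same total, a median below 0 is a shift in shares and not a fall in total RNA. In osmotic stress the macrophage markers summed to 16.6 TPM against 10.3 in the control, with Ptprc listed at 0 and Adgre1 at 0.110 TPM. Their part in the Ptgs2 value of that library was not tested.

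**Figure D2:**
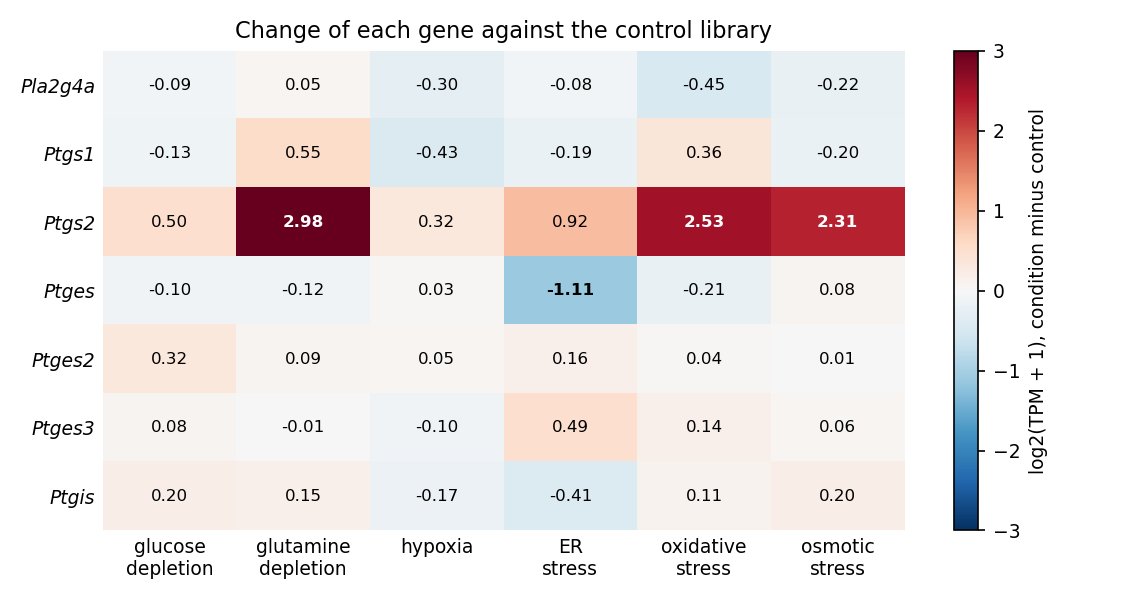
Difference in log2(TPM + 1) of each gene between each stress and the control library, with values beyond 1 or -1 in bold. The Ptgs2 line holds the 3 values above 1 (2.98, 2.53 and 2.31), and Ptges in ER stress holds the single value below -1 (-1.11).

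Stresses of the same length were also compared with each other, which leaves the control out. Among the libraries harvested at 10 hours, Ptgs2 in glutamine depletion was 5.63 times its level in glucose depletion, 6.35 times that in hypoxia and 4.19 times that in ER stress. Between glutamine and glucose depletion 5.49% of expressed genes differed by more than 2-fold in either direction, and the shares were 10.2% against hypoxia and 19.7% against ER stress. Both nutrient depletions thus left the cells in a medium short of 1 nutrient for 10 hours, yet differed by 2.48 log2 units in Ptgs2. At 3 hours, Ptgs2 in oxidative stress was 1.16 times its level in osmotic stress, a log2 difference of 0.22.

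Ptgs2 made up the larger part of the cyclooxygenase transcripts in every library, and its share was above that of the control in all 6 stresses. The sum of Ptgs1 and Ptgs2 was 108 TPM in the control, 703 in glutamine depletion, 519.5 in oxidative stress and 441 in osmotic stress. It was 180.04 TPM in ER stress, 140.4 in glucose depletion and 123 in hypoxia. Ptgs2 made up 77.7% of that sum in the control, between 84.4% and 88.4% in glucose depletion, hypoxia and ER stress, and 94.0% to 95.3% in the 3 stresses with the high levels. In hypoxia the share was raised by both genes moving apart, since Ptgs1 was at its lowest there, and in osmotic stress the ratio of Ptgs2 to Ptgs1 was the highest of the 7 libraries, at 20.2 against 3.49 in the control.

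**Figure D3:**
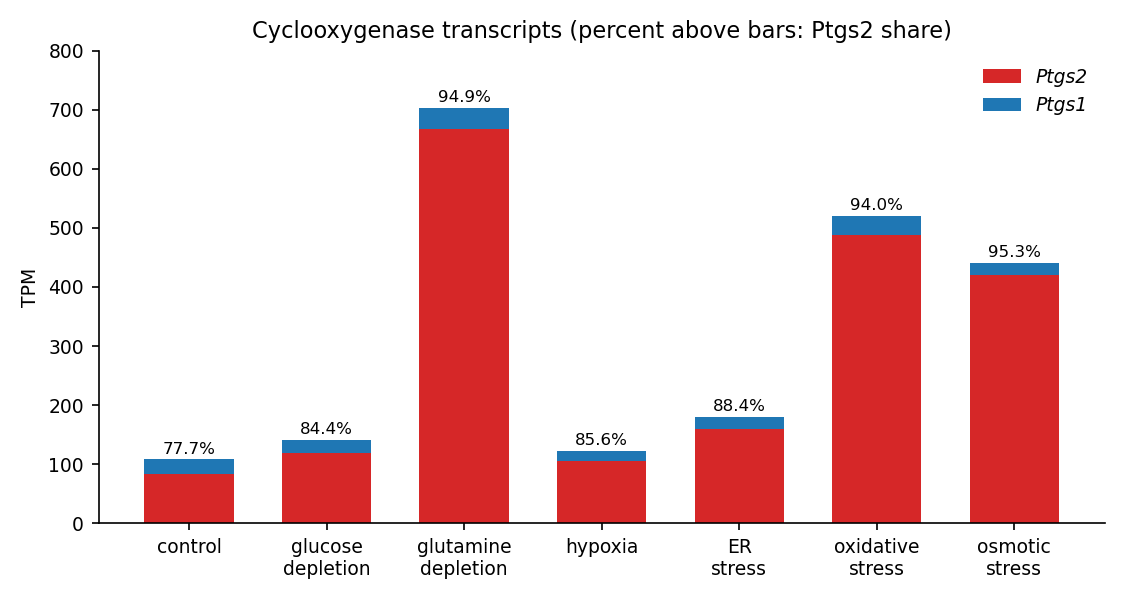
Stacked bars of Ptgs2 and Ptgs1 TPM in each library, with the percent of Ptgs2 in the sum above each bar. The bars of glutamine depletion, oxidative stress and osmotic stress reach 703, 519.5 and 441 TPM against 108 in the control, and nearly all of the added height is Ptgs2.

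The 3 genes named as PGE2 synthases behaved apart from the cyclooxygenases and from each other. Ptges encodes the microsomal synthase that is often induced together with Ptgs2. It read 21.04 TPM in the control, 19.6 in glucose depletion, 19.3 in glutamine depletion, 21.6 in hypoxia, 18.02 in oxidative stress and 22.3 in osmotic stress, but 9.19 TPM in ER stress. In the 3 libraries where Ptgs2 was high, Ptges was thus within 0.21 log2 units of the control. In ER stress it was 43.7% of the control (log2 change -1.11), and it was lower than in each of the other libraries harvested at 10 hours, by 1.00 to 1.15 log2 units. The fall passed the 2-fold limit by a small margin, and it was -0.88 when 5 TPM instead of 1 was added before taking logs. The fibroblast marker sum was also lowest in the ER stress library, and its part in this result was not tested.

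Ptges2, a membrane-associated synthase, read 27.2 TPM in the control, 34.2 in glucose depletion, 28.9 in glutamine depletion, 28.2 in hypoxia, 30.5 in ER stress, 28.1 in oxidative stress and 27.5 in osmotic stress. It had the narrowest range of the 7, the highest library being 1.26 times the lowest, and no stress moved it by more than 0.32 log2 units. Ptges3, also called p23, is known both as a cytosolic PGE2 synthase and as a cochaperone of HSP90. It read 142 TPM in the control, 132 in hypoxia and 199.8 in ER stress, with the other 4 libraries between 140.3 and 156 TPM. The ER stress value was a log2 change of 0.49. In the control it was the most abundant of the 7, and its level is the least certain, because 20.3% of its 2215 stretches of 31 bases occur unchanged in a processed pseudogene on chromosome 6, which is listed with a TPM of its own.

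Ptgis, the prostacyclin synthase, was the least abundant of the 7. It read 10.5 TPM in the control, 12.2 in glucose depletion, 11.7 in glutamine depletion, 9.20 in hypoxia, 7.65 in ER stress, 11.3 in oxidative stress and 12.1 in osmotic stress. The log2 changes ran from -0.41 to 0.20. ER stress was thus the lowest library for both Ptges and Ptgis, though only Ptges passed 2-fold. The ratio of Ptgs2 to Ptges, 3.98 in the control, reached 34.5 in glutamine depletion, 27.1 in oxidative stress, 18.9 in osmotic stress and 17.3 in ER stress, in the last case through both a higher Ptgs2 and a lower Ptges.

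**Figure D4:**
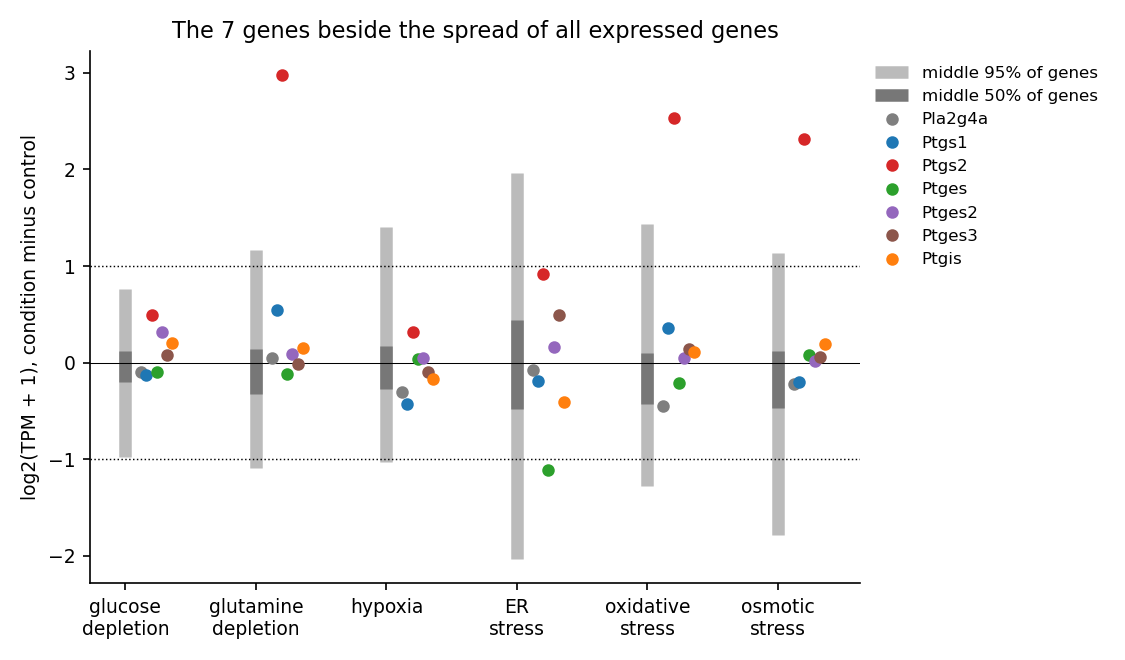
Log2 changes of the 7 genes (coloured points) beside the middle 50% and 95% of all 12909 expressed genes (dark and light bars) in each stress, with dotted lines at 2-fold. Ptgs2 lies above the light bar in glutamine depletion, oxidative stress and osmotic stress, and every other point lies within it.

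The rest of the prostanoid pathway was read through a list of 83 further genes in 8 roles. Among the 83 were 18 regulators of Ptgs2 and 13 genes of HSP90, its cochaperones and partner chaperones such as HSP70. Of the 83, 60 were expressed and 25 (41.7%) moved past 2-fold in at least 1 stress, against 34.4% of all expressed genes. The counts by role below are to be read against that share. By stress, 0 rose and 0 fell in glucose depletion, 5 rose and 2 fell in glutamine depletion, and 1 rose and 1 fell in hypoxia. In ER stress 5 rose and 10 fell, in oxidative stress 7 rose and 3 fell, and in osmotic stress 3 rose and 3 fell. As a share of the 60, the increases came to 8.33% in glutamine depletion (3.21% of all expressed genes), 11.7% in oxidative stress (3.94%) and 8.33% in ER stress (8.60%). The 83 genes were chosen with earlier results of these data known. A share above that of all expressed genes can come from that choice, so no response of the pathway as a set is read from it. Regulators of Ptgs2 made up 4 of the 5 increases in glutamine depletion and 5 of the 7 in oxidative stress. The HSP90 list held 1 more in oxidative stress, the HSP70 gene Hspa8, and the only other gene that rose in either stress was Acsl4. The decreases in ER stress came to 16.7% (11.0% of all). The balance of increases and decreases depended on the settings. With a pseudocount of 5 TPM, ER stress had 5 up and 3 down, oxidative stress 6 and 0, and osmotic stress 2 and 0. Centring on the median of all genes gave 5 up and 1 down in osmotic stress, and the median of the 7 libraries as reference gave 5 and 5 in ER stress.

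The phospholipase list, without Pla2g4a, had 7 expressed genes, of which 4 moved past 2-fold. Plaa, a phospholipase-activating protein and not itself a phospholipase, is counted among the 7 and stayed within 2-fold. The secreted phospholipases rose in ER stress, Pla2g2e from 7.06 to 32.1 TPM (log2 change 2.04) and Pla2g12a from 15.9 to 62.8 TPM (1.92). Pla2g16 fell in ER stress, from 17.9 to 8.01 TPM (-1.07), and the lysosomal Pla2g15 fell in oxidative stress, from 24.8 to 11.0 TPM (-1.10). In glutamine depletion and osmotic stress, where Ptgs2 was high, 0 of the 7 passed 2-fold, against 6.41% and 11.8% of all expressed genes. For 7 genes, a count of 0 lies near these shares. Ptgs2 was also high in oxidative stress, where Pla2g15 was the single phospholipase past 2-fold, against 8.78% of all expressed genes.

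Of the genes listed for taking fatty acids such as arachidonic acid back into lipids or releasing them, 4 of 7 expressed moved. Which fatty acid each enzyme handles in these cells was not measured. Acsl4, which couples arachidonic acid to coenzyme A, rose in glutamine depletion from 17.6 to 41.8 TPM (log2 change 1.20) and in oxidative stress to 39.8 TPM (1.13). It stood at 36.0 TPM in osmotic stress (0.99) and 32.5 in ER stress (0.85), within 2-fold. The acyltransferases Lpcat2 and Mboat2 moved in opposite directions in hypoxia, Lpcat2 from 3.56 to 0.946 TPM (-1.23) and Mboat2 from 5.60 to 17.9 TPM (1.52). Mgll, the lipase that splits monoacylglycerols, fell in ER stress from 8.92 to 2.46 TPM (-1.52).

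Of the other terminal synthases 4 of 8 were expressed, and Akr1b3, an aldose reductase that can also make prostaglandin F2α, was the single gene of them past 2-fold, in osmotic stress (log2 change 2.66). The enzymes of the prostaglandin D2 and thromboxane branches were low. Ptgds did not exceed 0.327 TPM and Hpgds 0.0663 TPM in any library, and Tbxas1 ran from 0.127 to 1.48 TPM.

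Prostaglandins are removed by uptake and oxidation, and 3 of the 6 genes of that list moved. Hpgd, the 15-hydroxyprostaglandin dehydrogenase that inactivates PGE2, read 11.2 TPM in the control, 8.88 in glucose depletion, 3.90 in glutamine depletion, 17.9 in hypoxia, 6.11 in ER stress, 3.31 in oxidative stress and 13.2 in osmotic stress. It fell by more than 2-fold in glutamine depletion (log2 change -1.32) and oxidative stress (-1.50), which are also the libraries with the highest Ptgs2. In osmotic stress, the next in order of Ptgs2, Hpgd was 0.22 log2 units above the control. In ER stress Ptgr1, a reductase that acts after Hpgd, fell from 29.6 to 11.3 TPM (-1.31), and Abcc4, an exporter of prostaglandins, rose from 6.63 to 21.3 TPM (1.54). The uptake transporter Slco2a1 was within 2-fold throughout.

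Receptor transcripts were scarce, with 3 of 9 expressed. Tbxa2r, the thromboxane receptor, read 6.01 TPM in the control and fell to 1.92 in glutamine depletion (log2 change -1.26), 1.59 in ER stress (-1.43) and 1.84 in oxidative stress (-1.30). In hypoxia it stood at 11.1 TPM (0.79). The PGE2 receptor Ptger4 ran from 1.89 TPM in ER stress to 6.04 in oxidative stress, within 2-fold of its 3.73 TPM in the control. The prostacyclin receptor Ptgir did not reach a mean of 2 TPM (0.572 TPM to 3.995 TPM), and Ptgdr, a prostaglandin D2 receptor, was listed at 0 in all 7 libraries. In the lipoxygenase branch, which makes leukotrienes from the same fatty acid, 2 of 8 genes were expressed, and Alox5ap, the partner protein of 5-lipoxygenase, fell from 3.46 TPM to 1.01 in ER stress (-1.15) and 0.970 in osmotic stress (-1.18).

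The list of known Ptgs2 regulators held 18 genes, all expressed, and 9 moved past 2-fold in at least 1 stress. The AP-1 gene Fosl1 rose in 4 stresses, from 49.4 TPM to 113 in glutamine depletion (log2 change 1.18), 1.20 log2 units up in ER stress, 1.42 in oxidative stress and 1.02 in osmotic stress. Atf3, a stress-induced factor of the ATF family, rose in the same 4, from 3.02 TPM to 21.3 in glutamine depletion, 112 in ER stress, 88.3 in oxidative stress and 13.2 in osmotic stress. Its largest value came in ER stress, where Ptgs2 stayed within 2-fold. Egr1, an immediate early factor, rose in glutamine depletion from 52.9 to 161 TPM (1.58) and in oxidative stress to 121 TPM (1.17). Nr4a1, another immediate early gene, rose in the same stresses, from 22.3 to 79.9 and 59.3 TPM (1.79 and 1.37), and fell in ER stress to 4.28 TPM (-2.14). Zfp36, a protein that binds AU-rich elements and speeds decay, rose in oxidative stress from 16.3 to 44.0 TPM (1.38) and stood at 33.4 TPM in glutamine depletion (0.99), just within 2-fold. In ER stress its relative Zfp36l1 fell (-1.04), as did the NF-kB inhibitor Nfkbia (-1.03) and the caveolar protein Cav1 (-1.75, from 1151 to 342 TPM). Cebpd, a C/EBP factor, fell in osmotic stress (-1.06). The rest of the list, Cebpb, Creb1, Fos, Jun, Nfkb1, Rela, Zfp36l2, Elavl1 and Hif1a, stayed within 2-fold in every stress.

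Ptges3 was set beside 13 genes of HSP90, its cochaperones and partner chaperones such as HSP70, all expressed. Of these 2 passed 2-fold. The immunophilin Fkbp5 fell in ER stress from 23.6 to 10.1 TPM (-1.15) and in osmotic stress to 10.9 TPM (-1.05), and the constitutive HSP70 gene Hspa8 rose in oxidative stress from 2473 to 5102 TPM (1.04).

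**Figure D5:**
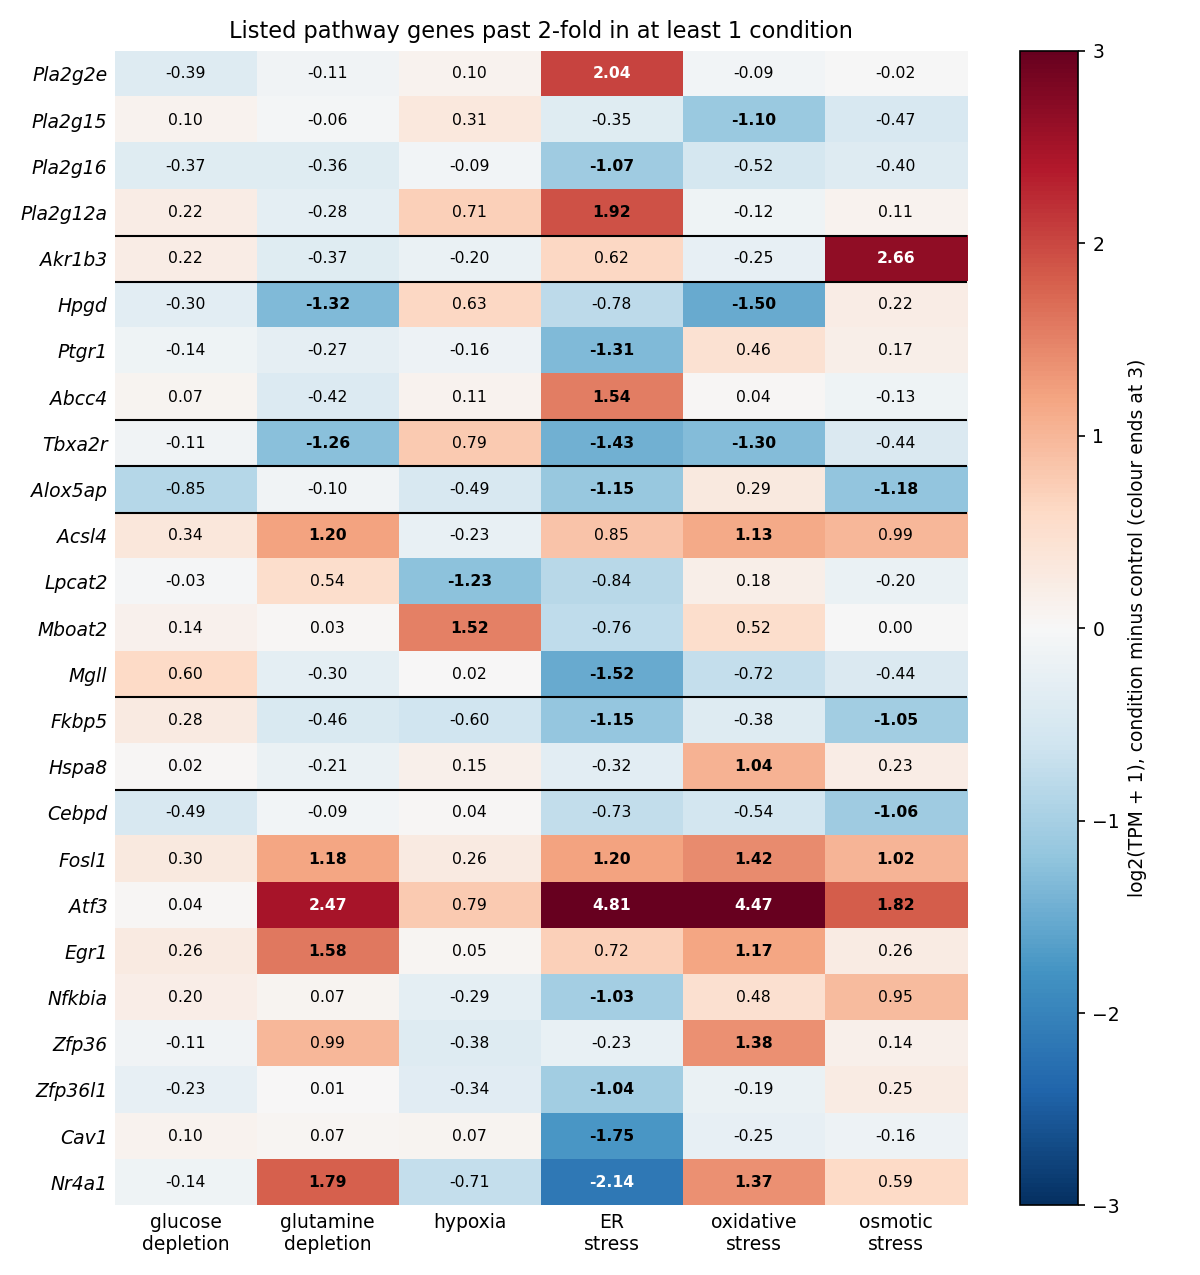
Difference in log2(TPM + 1) between each stress and the control for the 25 listed pathway genes past 2-fold in at least 1 stress, in blocks by role, with values beyond 1 or -1 in bold. ER stress holds 10 of the decreases, and the increases of Acsl4, Egr1 and Nr4a1 are in glutamine depletion and oxidative stress.

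The expressed genes whose 6 log2 changes were most like those of Ptgs2 were found by the root mean square difference, for which the median gene had 2.05. The 5 nearest were Gm24106 (0.603), Errfi1 (0.685), Hbegf (0.702), Gm9836 (0.714) and Ereg (0.724). Hbegf and Ereg encode ligands of the EGF receptor family, and Errfi1 an inhibitor of that receptor. Ereg read 16.2 TPM in the control, 108 in glutamine depletion, 86.8 in oxidative stress, 85.3 in osmotic stress and 23.8 in glucose depletion. It parted from Ptgs2 in hypoxia, where Ereg fell to 5.74 TPM (log2 change -1.35, against 0.32 for Ptgs2). In ER stress Ereg rose past 2-fold to 43.5 TPM (1.37, against 0.92 for Ptgs2). Errfi1 and Hbegf tracked Ptgs2 less closely in osmotic stress, at 0.90 and 0.79 log2 units. Gm24106 and Gm9836 were listed at 0 in the control and did not exceed 7.09 and 5.25 TPM, so their changes rest on low values. For Ptges, with 0.624 for the median gene, the 5 nearest were Nid2 (0.0477), Col11a1 (0.0605), Sulf2 (0.0684), Cox7a2 (0.0738) and Lynx1 (0.0790). Nid2, Col11a1 and Sulf2 encode matrix or extracellular proteins. All 5, Cox7a2 and Lynx1 included, read lowest in ER stress, Col11a1 going from 102 to 45.5 TPM and Cox7a2 from 207 to 93.6 TPM. In that stress 11.0% of all expressed genes fell by more than 2-fold. All of these changes share the 1 control library.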

How the data were processed

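RNA-seq of MEFs, 7 libraries of stranded, poly(A)-selected RNA with paired reads of 76 bases, was analysed. The authors estimated transcript levels with kallisto 0.43.1 at default settings, which use no strand, against GRCm38 transcripts and deposited TPM summed per gene, each library adding to 1000000 TPM. Counts and depth are not kept in this unit. Samples were grouped by their treatment labels. The methods of the study describe a sort against macrophages for MEFs, which the labels of these libraries do not mention.

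From the deposited TPM, log2(TPM + 1) was taken and the control subtracted. Genes with a mean under 2 TPM were left out of counts, and the 2-fold limit follows the methods of the study. With 1 library per condition no test was run. The gene lists, like the members, were chosen with those earlier results known. Named genes were the 7 enzymes, listed pathway genes past 2-fold, genes that complete a branch, the 5 genes nearest to each enzyme past 2-fold, and 1 gene per treatment. The Ptgs2 regulators within 2-fold are named as well. The alternatives were other pseudocounts, filters, thresholds and references, centring, and removal of mitochondrially encoded genes. Gene positions came from GENCODE M21 and promoters from RefSeq. Ptgs2 motif positions are counted with the first base of the annotated transcript as 1. The steps were tested on simulated data. Python 3.11.15, numpy 2.4.6 and pandas were used.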

Additional observations from a re-analysis of the deposited data

How the results depend on the processing

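Counts of the 7 enzymes past 2-fold were unchanged to within 1.5 times in 51 of 54 recomputations over 9 alternatives. The exceptions were all in ER stress, where the count of 1 became 0 with a pseudocount of 5 TPM, 2 at a 1.5-fold limit (Ptgs2 joins Ptges) and 0 at a 3-fold limit. Removing the filter or asking for a mean of 10 TPM could not change these counts, as the lowest mean, of Ptgis, was 10.7 TPM. No alternative turned the direction of a change past 2-fold. Of 300 recomputed changes of single enzymes, 15 differed in sign or became 0, all of them within 2-fold. The 300 include 42 values at the 1.5-fold limit and 42 at the 3-fold limit. Those could not differ, since a limit does not alter a change. Of the 15, 12 came from taking the median of the 7 libraries as the reference. Ptgs2 in glucose depletion and hypoxia was then -0.42 and -0.60.

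Counts of the other 60 pathway genes depended more on the settings. With a pseudocount of 0.1 TPM, glucose depletion had 1 in place of 0. With a pseudocount of 5 TPM there were 1 in hypoxia, 8 in ER stress, 6 in oxidative stress and 2 in osmotic stress, in place of 2, 15, 10 and 6. A mean of at least 10 TPM left 0 in hypoxia. A 1.5-fold limit gave 3 in glucose depletion, 12 in glutamine depletion, 13 in hypoxia, 32 in ER stress, 17 in oxidative stress and 11 in osmotic stress. A 3-fold limit gave 2 in glutamine depletion, 0 in hypoxia, 5 in ER stress, 1 in oxidative stress and 2 in osmotic stress. With the median of the 7 libraries as reference there were 1 in glucose depletion, 3 in glutamine depletion, 5 in hypoxia, 6 in oxidative stress and 1 in osmotic stress. Fewer or more genes pass by construction when the limit or pseudocount moves, and the cause was not tested for the reference. With 1 library per condition and no read counts, neither the spread between cultures nor counting error is known. No paired analysis was possible because each condition has 1 library and no result comes from a test.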

Other observations

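Some genes beside the 7 enzymes were read after their values were seen. Ptgs2os, an RNA on the opposite strand that starts 68 bases from the start of Ptgs2, ran from 1.03 to 2.13 TPM and was 1.55 TPM in glutamine depletion against 1.43 in the control, while Ptgs2 went from 83.8 to 667 TPM. A second opposite-strand RNA, Ptgs2os2, ran from 2.07 to 5.97 TPM and was highest in glucose depletion. Ptges3l, a gene named for its likeness to Ptges3, went from 25.7 TPM in the control to 8.11 in ER stress (log2 change -1.55), while Ptges3 itself went from 142 to 199.8 TPM. Ptgfrn, a membrane protein named for its action on the prostaglandin F2α receptor, went from 56.2 to 24.99 TPM in ER stress (-1.14).

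All 450 stretches of 31 bases in the processed pseudogene of Ptges3 (chromosome 6, 85843980 to 85844459, plus strand) occur in Ptges3. The pseudogene was listed at 163 to 242 TPM, and Ptges3 held 43.7% to 45.5% of the sum of both. In that sum, an alternative added after seeing the data, the log2 change in ER stress was 0.47 against 0.49 for Ptges3 alone, and the other 5 ran from -0.11 to 0.12. Of the remaining enzymes, Ptgis shared the most, 5.00% of its stretches, with an opposite-strand gene that did not exceed 0.729 TPM, and reads of such a pair cannot be told apart without strand.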
